A study of Mus musculus with 8 samples.

Results

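The matrix metalloproteases (Mmp), their tissue inhibitors (Timp) and the ADAMTS proteases (Adamts) were followed in intestinal tumours and tumour-free mucosa of mice with and without the protease inhibitor HAI-1 in the gut epithelium. Members were all genes whose symbol in the array annotation is Mmp, Timp or Adamts followed by a number, leaving out the Adamtsl genes and probe sets assigned to several genes. They numbered 37 of 18194 genes: 18 Mmp, 4 Timp and 15 Adamts genes, read by 70 probe sets. Of these, 25 (13 Mmp, 3 Timp and 9 Adamts) had a probe set bright enough to be tested among 13119 genes.

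Matrix metalloproteases are zinc enzymes, secreted or anchored in the cell membrane as inactive proenzymes, that cut collagens, proteoglycans, basement membrane and other proteases. ADAMTS proteases are secreted relatives with thrombospondin repeats that cut proteoglycans and trim procollagens, and the TIMPs are small secreted proteins that block the active site of both kinds of enzyme to differing degrees. In the mouse intestine, Mmp7 is made by Paneth cells, where it activates antimicrobial defensins, and by the epithelium of adenomas, whereas most other matrix metalloproteases of intestinal tumours are known mainly from stromal and inflammatory cells.

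RNA was hybridised to 8 Affymetrix mouse arrays, 2 for each of 4 groups. All mice were C57BL/6, carried the Min mutation of Apc, which causes intestinal adenomas, and had both Spint1 alleles flanked by loxP sites (Apc(Min/+)/Spint1(flox/flox)), and were fed the AIN-76 diet. Spint1 encodes HAI-1, a membrane-bound inhibitor of serine proteases such as matriptase. The HAI-1 deficient mice also carried Vil-Cre, the control mice did not, and non-tumour mucosa and tumours were taken from either genotype. The villin promoter is known to drive Cre in the intestinal epithelium, so other cells were not targeted, and Spint1 was not measured by cell type. Whether the 2 arrays of a group stand for separate mice, and whether tumour and mucosa share a mouse, is not in the labels, so the p-values measure only the spread between these samples, and the number of arrays limits the precision. A free-text description of the HAI-1 deficient mucosa arrays also has the word tumor, and their tissue label, which names non-tumor mucosa, was followed.

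Values were log2 signals of 1 probe set per gene, that with the highest mean, and a gene was tested where its mean reached 5.20 (36.8 on the linear scale), the 40th percentile of all probe sets. The second control tumour array stood apart in the ratio of 3' to 5' Gapdh signal, which was 25.9 there and 0.803 to 1.77 on the other 7 arrays. The labelling spike-in controls had a mean log2 signal of 9.14 to 9.29 on the second arrays of control mucosa, HAI-1 deficient mucosa and HAI-1 deficient tumours and of 7.57 to 8.0 on the other 5. The log2 signal of Spint1 was 12.75 to 13.06 on the 4 control arrays and 11.76 to 12.46 on the 4 deficient arrays, and neither tissue's difference passed the test. The summed signal of 7 epithelial marker genes was 146563 to 169046 on the linear scale in all 4 groups, and none of these markers was at 0.

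In tumours of control mice, 16 of the 25 tested members rose against control mucosa and none fell. Over all genes tested, 21.2% were called higher and 7.64% lower, 28.8% in all (limma fitted over all 8 arrays, Benjamini-Hochberg adjusted p under 0.05 over 13119 genes). Called were 10 of 13 Mmp genes, all 3 tested Timp genes and 3 of 9 Adamts genes, from Mmp10 (15.8-fold) and Mmp13 (12.6-fold) to Mmp23 (2.57-fold). The median difference was 1.90 on the log2 scale over the 25 members and 0.24 over all genes tested. Both tumour arrays lay above both mucosa arrays for 20 members, which held for 45.3% of all genes, and below them for 1, Mmp24, against 23.6% of all genes. Among the 25 members, 20 had a control mucosa mean at or above the filter value, and 13 of those were called, so that most calls did not rest on genes that were dim in mucosa.

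**Figure D1:**
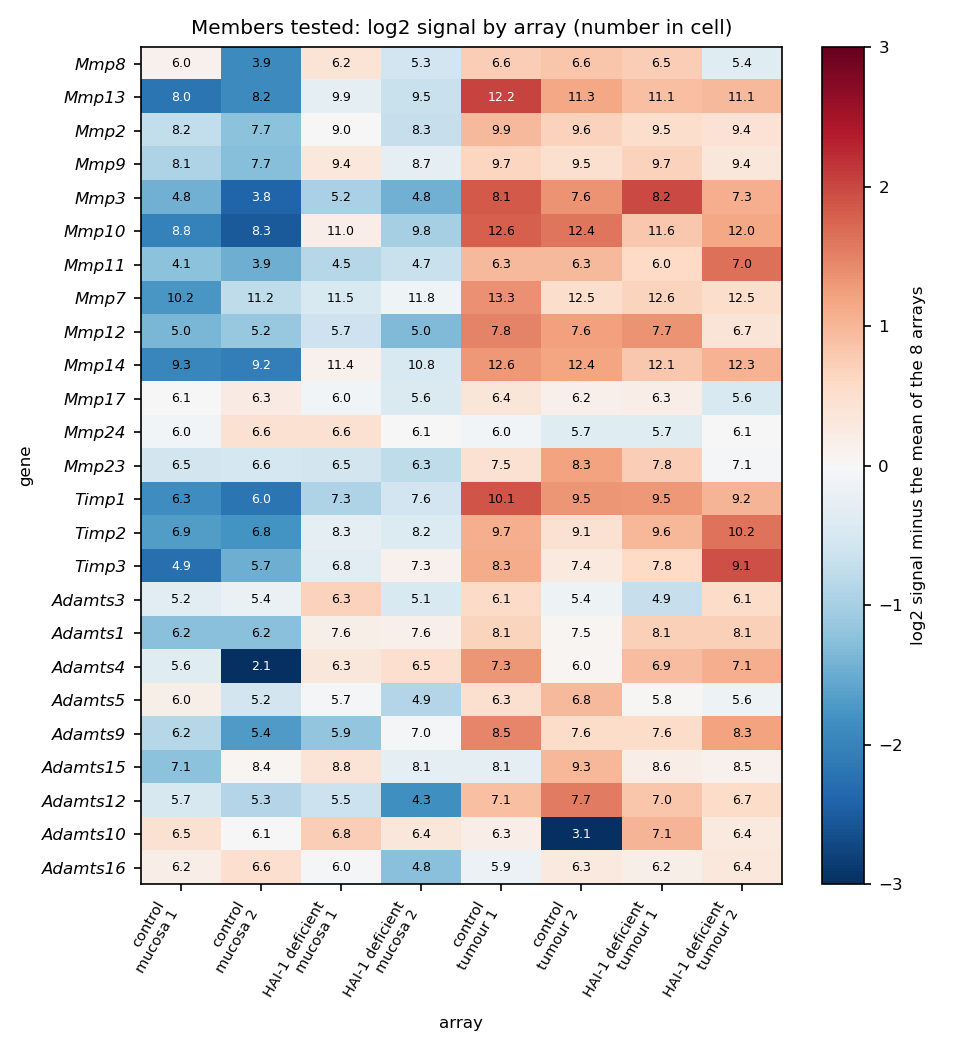
Log2 signal of the 25 tested members (rows) on the 8 arrays (columns), with the value printed in each cell and the colour showing its distance from the gene's mean over the 8 arrays. Mmp10, Mmp13, Mmp14, Timp1 and Timp2 are lowest on the 2 control mucosa arrays and highest on tumour arrays, with HAI-1 deficient mucosa in between.

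Of the 18 measured Mmp genes, 9 lie side by side on mouse chromosome 9, and the promoters of the 6 tested ones are shown because 5 of them rose in control tumours. In the RefSeq annotation (GRCm38.p6), all 10 protein-coding genes of that stretch are Mmp genes, in the order Mmp13, Mmp12, Mmp1b, Mmp3, Mmp1a, Mmp10, Mmp8, Mmp27, Mmp20 and Mmp7. The 120 bases before an annotated start follow, on the plus strand, which is the coding strand of these 6 genes, with capitals for the letters TGACTCA or their reverse complement TGAGTCA, the binding letters of the transcription factor AP-1. Mmp12 and Mmp7 have 2 annotated starts each, and the one whose window holds the letters was used.
Mmp13 (chr9:7272394-7272513): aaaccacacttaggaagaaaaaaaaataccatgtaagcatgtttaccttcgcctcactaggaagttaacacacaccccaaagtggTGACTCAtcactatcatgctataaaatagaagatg
Mmp12 (chr9:7347254-7347373): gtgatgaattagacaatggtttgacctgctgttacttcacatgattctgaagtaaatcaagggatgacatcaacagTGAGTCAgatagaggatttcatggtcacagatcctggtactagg
Mmp3 (chr9:7445702-7445821): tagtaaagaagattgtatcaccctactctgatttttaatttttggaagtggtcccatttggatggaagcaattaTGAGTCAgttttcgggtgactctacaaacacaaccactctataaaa
Mmp10 (chr9:7502222-7502341): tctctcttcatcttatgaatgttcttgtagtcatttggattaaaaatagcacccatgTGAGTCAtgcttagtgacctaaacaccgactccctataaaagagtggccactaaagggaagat
Mmp8 (chr9:7558309-7558428): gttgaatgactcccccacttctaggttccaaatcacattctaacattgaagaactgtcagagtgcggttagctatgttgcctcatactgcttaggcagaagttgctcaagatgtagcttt
Mmp7 (chr9:7691970-7692089): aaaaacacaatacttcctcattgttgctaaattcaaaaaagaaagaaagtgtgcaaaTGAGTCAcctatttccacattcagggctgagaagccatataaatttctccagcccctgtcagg

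The AP-1 letters began 35 bases before the start of Mmp13, 44 before that of Mmp12, 46 before that of Mmp3 and 63 before those of Mmp10 and Mmp7. Windows from 250 bases before to 50 after a start were found for 23 of the 37 members, and either strand of the letters was in those of 7, all in the chromosome 9 stretch: the 5 just named, Mmp1a and Mmp1b. They were in none of the windows of the 14 members elsewhere in the genome, Mmp14 and the Timp genes included, and in 5.2% of all 32851 windows of this length. Of the 6 tested genes in the stretch, the 5 with the letters were called higher in control tumours, and Mmp8, without them, was not. Tested genes elsewhere, with windows lacking the letters, were also called higher: Mmp11, Mmp14, Mmp23, Timp1, Timp2, Timp3, Adamts1, Adamts9 and Adamts12. Mmp24 and Adamts3, elsewhere and without the letters, were not. The Mmp8 result was open to the processing: it was called higher with the replicate block (adjusted p = 0.0425) and without the first control mucosa array (2.71, adjusted p = 0.0296). Mmp1a and Mmp1b hold the letters and stayed under the filter value on all 8 arrays. The letters CTTTGAT or their reverse complement ATCAAAG are bound by the TCF factors of the Wnt pathway and do not overlap the AP-1 letters. Among the 23 members they were found only for Mmp7, and they were in 3.73% of all windows. In Mmp7 they form a single site that both of its overlapping windows hold. That site begins at base 5 counted from the start used above, and so lies after it. These matches describe letters in the windows and were not tested against the signals.

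The collagenase Mmp13, which opens the triple helix of fibrillar collagens, had log2 signals of 7.96 and 8.24 in control mucosa, 9.86 and 9.50 in HAI-1 deficient mucosa, 12.17 and 11.32 in control tumours and 11.05 and 11.14 in HAI-1 deficient tumours. No 2 groups overlapped, and control tumours stood highest. It rose by 3.65 ± 0.33 (SE) in control tumours against control mucosa (adjusted p = 0.00118, n = 2 arrays per group here and throughout). The differences of 1.42 ± 0.33 between tumours and mucosa of HAI-1 deficient mice (adjusted p = 0.0584) and of 1.58 ± 0.33 between deficient and control mucosa (adjusted p = 0.0703) did not pass the test. Mmp8, the neutrophil collagenase, was spread widely in control mucosa, at 5.96 and 3.90, and lay at 6.57 and 6.65 in control tumours. Its difference there was at least 2.04-fold, taking a dim array at the filter value, with an adjusted p of 0.107.

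Among the stromelysins, which cut proteoglycans and basement membrane and activate other proenzymes, all 3 tested genes rose in control tumours. Mmp10 had log2 signals of 8.79 and 8.30 in control mucosa, 11.03 and 9.83 in deficient mucosa, 12.62 and 12.44 in control tumours and 11.62 and 11.98 in deficient tumours. Its groups did not overlap and stood in that same order as Mmp13, with a rise of 3.99 ± 0.41 in control tumours (adjusted p = 0.00142) and a difference of 1.37 ± 0.41 in deficient mice (adjusted p = 0.101). Mmp3 was at 4.78 and 3.80 in control mucosa, 5.23 and 4.76 in deficient mucosa, 8.06 and 7.57 in control tumours and 8.20 and 7.29 in deficient tumours. Its mucosa values were near or under the filter value, and tumours of either genotype lay above them. The rise was at least 6.11-fold in control tumours (adjusted p = 0.00245) and at least 5.79-fold in deficient tumours (adjusted p = 0.0302). Mmp11, made by fibroblasts around tumours, was under the filter value in all 4 mucosa arrays, at 3.90 to 4.70, and reached 6.34 and 6.35 in control tumours and 5.97 and 7.03 in deficient tumours. It rose at least 2.2-fold in control tumours (adjusted p = 0.00455) and at least 2.46-fold in deficient tumours (adjusted p = 0.0386).

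Mmp7, the matrilysin, had log2 signals of 10.22 and 11.20 in control mucosa, 11.52 and 11.84 in deficient mucosa, 13.34 and 12.49 in control tumours and 12.64 and 12.49 in deficient tumours. Tumours lay above mucosa in either genotype, and the tumour groups overlapped. The rise in control tumours was 2.20 ± 0.41 (4.6-fold, adjusted p = 0.00818), and the difference in deficient mice was 0.89 ± 0.41 (adjusted p = 0.226). Mmp12, the macrophage metalloelastase, was at 4.99 and 5.23 in control mucosa, 5.73 and 5.03 in deficient mucosa, 7.84 and 7.59 in control tumours and 7.69 and 6.73 in deficient tumours. Mucosa of either genotype lay near the filter value and below every tumour array, and the rise was at least 5.65-fold in control tumours (adjusted p = 0.00408) and at least 3.35-fold in deficient tumours (adjusted p = 0.0479).

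Both gelatinases, which cut denatured collagen and the type IV collagen of basement membranes, rose in control tumours. Mmp2 had log2 signals of 8.21 and 7.72 in control mucosa, 8.96 and 8.25 in deficient mucosa, 9.91 and 9.64 in control tumours and 9.46 and 9.36 in deficient tumours, a rise of 1.81 ± 0.32 in control tumours (adjusted p = 0.00691). Mmp9 was at 8.10 and 7.75 in control mucosa, 9.36 and 8.74 in deficient mucosa, 9.68 and 9.52 in control tumours and 9.73 and 9.38 in deficient tumours. For Mmp9 the tumour groups overlapped, deficient mucosa lay just below them and control mucosa was lowest, with a rise of 1.67 ± 0.30 in control tumours (adjusted p = 0.00738). In deficient mice, the differences of 0.81 ± 0.32 for Mmp2 (adjusted p = 0.172) and 0.51 ± 0.30 for Mmp9 (adjusted p = 0.339) did not pass the test.

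Mmp14, a membrane-type metalloprotease that activates the Mmp2 proenzyme together with Timp2, was the 1 member called for HAI-1 loss. Its brightest probe set, 1448383_at, had log2 signals of 9.30 and 9.18 in control mucosa, 11.37 and 10.79 in deficient mucosa, 12.56 and 12.43 in control tumours and 12.05 and 12.30 in deficient tumours. No 2 groups overlapped, and deficient mucosa lay between control mucosa and the tumours. It was 3.58-fold higher in deficient than in control mucosa (1.84 ± 0.27, adjusted p = 0.0395) and 9.53-fold higher in control tumours than in control mucosa (3.25 ± 0.27, adjusted p = 0.000924). In deficient mice, tumours and mucosa differed by 1.09 ± 0.27 (adjusted p = 0.0681).

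The other 2 Mmp14 probe sets had the same direction for HAI-1 loss in mucosa, by 1.48 and 1.93, and differed from the first in tumours. Probe set 1440920_at read 9.14 and 6.00, and 1416572_at 7.28 and 2.46, on the first and second control tumour array, a gap the brightest probe set did not show. Against control mucosa, control tumours differed by 0.31 and -0.91 with these probe sets, and by 1.88 and 1.5 when the second control tumour array, the one with the high Gapdh ratio, was left out. The mean of the 3 probe sets gave a difference of 0.88 (adjusted p = 0.427), and 2.23 without that array (adjusted p = 0.0243). The part of RNA quality in this was not tested. In HAI-1 deficient mucosa, the mean of the probe sets was not called (adjusted p = 0.312).

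**Figure D2:**
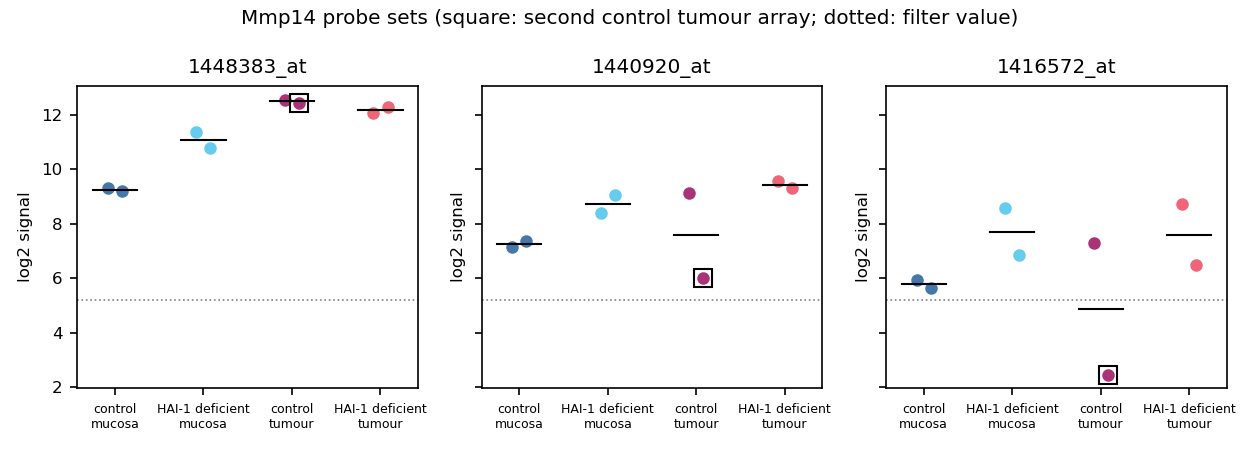
Log2 signal of the 3 Mmp14 probe sets in the 4 groups (points are arrays, lines group means, the square is the second control tumour array and the dotted line the filter value of 5.20). The square lies beside the other control tumour array for 1448383_at and far below it for the other 2 probe sets, at 6.00 and 2.46.

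The other tested membrane-type genes, Mmp17 and Mmp24, were not called in any comparison, with control tumour differences of 0.12 and -0.43. Mmp23, a membrane-bound member without the hemopexin domain of most others, was at 6.55 and 6.57 in control mucosa, 6.53 and 6.34 in deficient mucosa, 7.55 and 8.30 in control tumours and 7.83 and 7.06 in deficient tumours. The rise of 1.36 ± 0.36 in control tumours passed the test (adjusted p = 0.027), and the difference of 1.01 ± 0.36 in deficient mice did not (adjusted p = 0.138).

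The inhibitors rose together with the enzymes in control tumours. Timp1 had log2 signals of 6.33 and 6.01 in control mucosa, 7.27 and 7.63 in deficient mucosa, 10.07 and 9.52 in control tumours and 9.49 and 9.21 in deficient tumours. The 4 groups did not overlap, and the rise was 12.3-fold in control tumours (3.62 ± 0.30, adjusted p = 0.000867) and 3.75-fold in deficient tumours (1.91 ± 0.30, adjusted p = 0.0297). Timp2 was at 6.94 and 6.83 in control mucosa, 8.30 and 8.20 in deficient mucosa, 9.70 and 9.06 in control tumours and 9.60 and 10.24 in deficient tumours. Its tumour groups overlapped and mucosa was lower in either genotype, with rises of 5.64-fold in control tumours (adjusted p = 0.00264) and 3.18-fold in deficient tumours (adjusted p = 0.0395). Timp3, which binds to the matrix and also blocks ADAMTS and ADAM proteases, was at 4.89 and 5.67 in control mucosa, 6.80 and 7.28 in deficient mucosa, 8.25 and 7.44 in control tumours and 7.75 and 9.09 in deficient tumours. It rose at least 5.31-fold in control tumours with the probe set used (adjusted p = 0.0107). Its difference of 1.37 ± 0.52 in deficient mice did not pass the test (adjusted p = 0.155). Its second probe set above the filter gave a smaller log2 difference in control tumours, 1.65 against 2.57.

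Of the ADAMTS proteases, 3 rose in control tumours. Adamts1, a proteoglycanase that cuts versican, was at 6.15 and 6.16 in control mucosa, 7.59 and 7.57 in deficient mucosa, 8.07 and 7.48 in control tumours and 8.12 and 8.12 in deficient tumours. Control mucosa was lowest, deficient mucosa overlapped control tumours, and the rise was 3.07-fold in control tumours (adjusted p = 0.00563). Adamts9, another proteoglycanase, was at 6.21 and 5.37 in control mucosa, 5.88 and 7.03 in deficient mucosa, 8.52 and 7.60 in control tumours and 7.61 and 8.26 in deficient tumours, and rose 4.84-fold in control tumours (adjusted p = 0.016). Adamts12, which cuts cartilage oligomeric matrix protein, was at 5.68 and 5.30 in control mucosa, 5.53 and 4.33 in deficient mucosa, 7.06 and 7.73 in control tumours and 6.99 and 6.71 in deficient tumours. For both genes all tumour arrays lay above all mucosa arrays, and Adamts12 rose 3.74-fold in control tumours (adjusted p = 0.0162). In deficient mice the adjusted p was 0.253 for Adamts1, 0.134 for Adamts9 and 0.0534 for Adamts12.

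The other 6 tested Adamts genes were not called in any comparison: the proteoglycanases Adamts4, Adamts5 and Adamts15, the procollagen trimming enzyme Adamts3, and Adamts10 and Adamts16. Adamts4 was at 5.62 and 2.11 in control mucosa and at 7.29 and 6.04 in control tumours, at least 2.38-fold apart with an adjusted p of 0.0701. It was called higher there under 4 other settings of the processing, with adjusted p-values from 0.00747 (without the first control mucosa array) to 0.0496 (mean-variance trend), and also with the mean of probe sets when the second control tumour array was left out (0.0168). Adamts10, which acts on fibrillin microfibrils, had 1 low value, 3.07 on the second control tumour array, against 6.07 to 7.11 on the other 7 arrays.

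The 12 members that were not tested had a mean under the filter value, the nearest being Mmp16 at 4.92, and the nearest tested gene was Mmp11 at 5.37. Adamts18, Adamts19, Adamts20, Mmp1a and Mmp1b stayed under the filter value on every array, and Timp4, Mmp16, Mmp19, Mmp20, Adamts6, Adamts7 and Adamts8 reached it on some. Adamts6 read 3.13 and 3.44 in control mucosa, 2.75 and 5.31 in deficient mucosa, 6.17 and 5.89 in control tumours and 5.59 and 6.80 in deficient tumours, so that all 4 tumour arrays lay above all 4 mucosa arrays. Mmp19 read 3.13 and 4.16 in control mucosa and 5.45 and 5.41 in control tumours. The other probe set of Adamts6 and that of Mmp19 did not rise in control tumours, with differences of -0.70 and -0.073. With the brightest probe set of each untested member, control tumour differences ran from -3.79 (Mmp1a) to 4.03 (Adamts20). These are values without a test.

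In HAI-1 deficient mice, 5 of 25 members rose in tumours against mucosa and none fell: Timp1, Mmp3, Mmp11, Timp2 and Mmp12. Of all genes tested, 2.45% were called higher and 1.75% lower, 4.2% in all. Mmp3 and Mmp11 had a deficient mucosa mean under the filter value and passed the filter through the tumour arrays. Of the 22 members with a deficient mucosa mean at or above it, 3 were called. The median difference was 0.90 over the members and 0.18 over all genes tested. Tumour and mucosa arrays did not overlap, with tumours higher, for 18 members, against 36.6% of all genes, and with tumours lower for 0 members, against 18.9%. All 5 were also called in control tumours. The 2 comparisons have no array in common, but they are not independent. Both came from the same fit over all arrays and share each gene's error estimate, filter and probe set. The calls were 0 of 25 when any 1 mucosa or deficient tumour array was left out, and 3 without either control tumour array.

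Loss of HAI-1 in tumour-free mucosa was called for 1 of 25 members, Mmp14, against 0.899% of all genes called higher and 0.152% called lower, 1.05% in all. At an unadjusted p under 0.05 were 11 members and 2295 of 13119 genes. The median difference was 0.67 over the members and 0.11 over all genes, and 20 of the 25 differences were above 0. Deficient and control mucosa did not overlap for 15 members, 12 higher and 3 lower in deficient mice, which held for 30.9% and 17.3% of all genes. Among these, Mmp13 differed 3-fold (adjusted p = 0.0703), Mmp10 3.7-fold (adjusted p = 0.0743) and Adamts1 2.68-fold (adjusted p = 0.0579). Timp1 differed 2.42-fold (adjusted p = 0.0865) and Timp2 2.58-fold (adjusted p = 0.0875), and none of these genes passed the test. The other 3 Timp2 probe sets above the filter gave smaller log2 differences of 0.49, 0.92 and 0.84, against 1.37 with the one used. Between the arrays with low spike-in signal, 1 per group, 19 members were higher in deficient mucosa with a median of 0.74. Between those with high signal, also 1 per group, 16 were, with a median of 0.80. These are differences between single arrays, without the matching values over all genes. Some members changed sign between them, among them Adamts15 (1.64 and -0.36) and Adamts9 (-0.32 and 1.66). The Mmp14 call was lost when the arrays were quantile normalized, when no filter was set, with the replicate block, and when any 1 of the 4 mucosa or 2 control tumour arrays was left out.

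**Figure D3:**
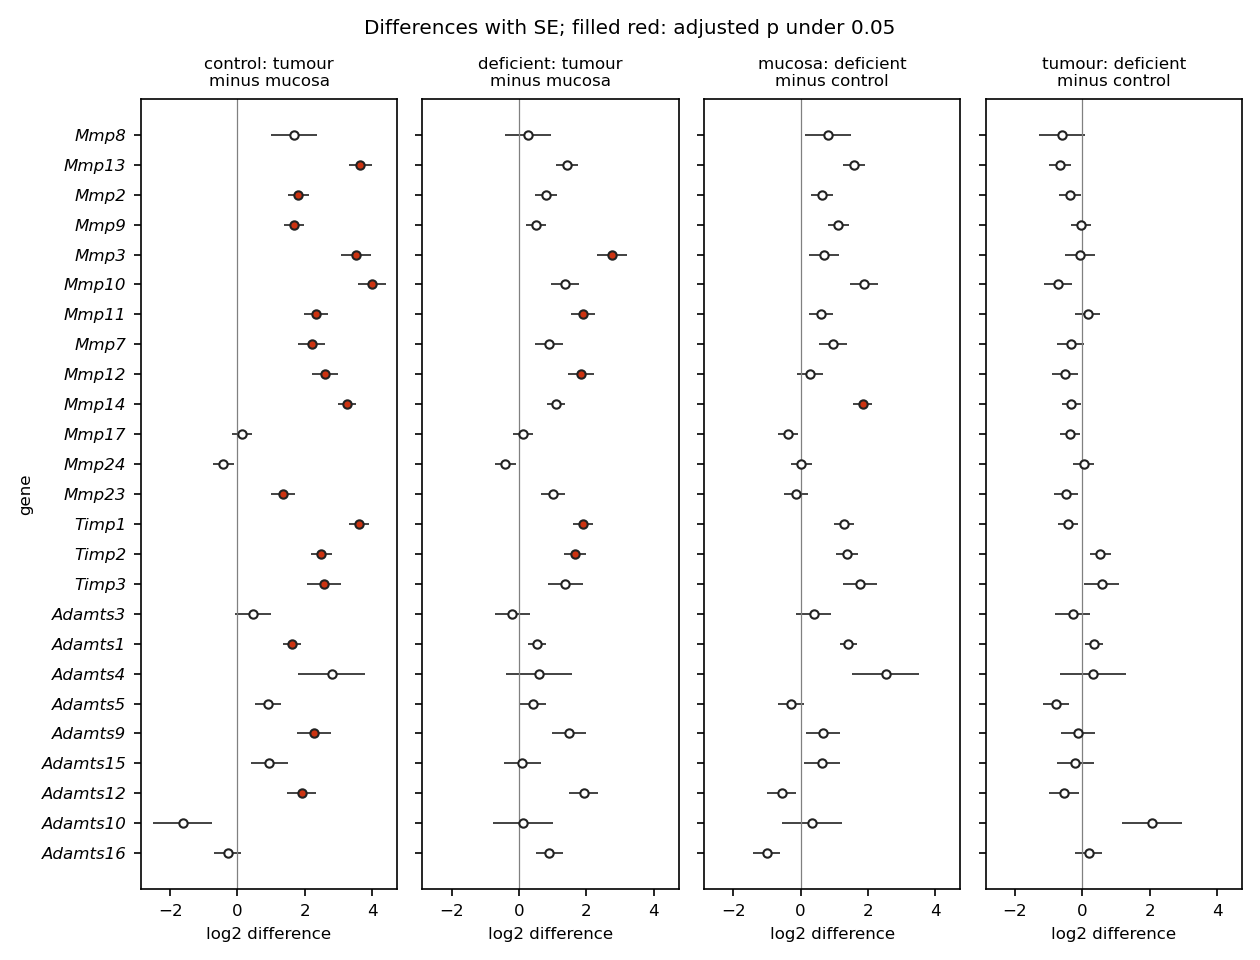
Fitted log2 difference with its SE for each tested member (rows) in each comparison of 2 groups (panels). Filled red points mark an adjusted p under 0.05. Most points lie to the right of 0 in control tumours, where 16 are filled. Filled points number 5 in deficient tumours, 1 for HAI-1 loss in mucosa and none for HAI-1 loss in tumours.

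In tumours, loss of HAI-1 was called for 0 of 25 members and for 0% of all genes (limma), with 0 members and 802 of 13119 genes at an unadjusted p under 0.05. The median difference was -0.29 over the members and -0.01 over all genes, and 2 members were higher and 8 lower without overlap, against 18.6% and 19.4% of all genes. The smallest p-values among differences below 0 were those of Adamts5 (-0.78 ± 0.38), Mmp13 (-0.65 ± 0.33) and Mmp10 (-0.73 ± 0.41), and among those above 0 those of Adamts10 (2.07 ± 0.89), Timp2 (0.54 ± 0.32) and Adamts1 (0.35 ± 0.27), with adjusted p-values of 0.779 to 0.784. Leaving out 1 control tumour array moved Mmp13 to -0.23 (first) or -1.08 (second), Timp2 to 0.86 or 0.22 and Adamts1 to 0.64 or 0.046, and leaving out 1 deficient tumour array moved Timp2 to 0.86 (first) or 0.22 (second). With the spike-in split as a term Adamts5 was at -0.50, and its second probe set gave -0.12. Adamts5, a proteoglycanase, was at 5.97 and 5.23 in control mucosa, 5.72 and 4.90 in deficient mucosa, 6.27 and 6.76 in control tumours and 5.82 and 5.64 in deficient tumours. Adamts10 rested on the low control tumour array given above, and without that array its difference was 0.47.

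The difference between the 2 effects of HAI-1 loss, that in tumours minus that in mucosa, was called for 0 of 25 members and 0% of all genes (limma). It had an unadjusted p under 0.05 for 6 members and 1211 of 13119 genes. With the brightest probe set of each, all 6 were below 0: Mmp14 at -2.16 ± 0.39 (adjusted p = 0.254), Mmp13 at -2.24 ± 0.47 (adjusted p = 0.267), Mmp10 at -2.62 ± 0.58 (adjusted p = 0.276), Timp1 at -1.71 ± 0.42 (adjusted p = 0.297), Adamts1 at -1.08 ± 0.38 (adjusted p = 0.479) and Mmp9 at -1.17 ± 0.43 (adjusted p = 0.493). The Mmp14 value depended on the probe set: it was 0.39 and 0.81 with the other 2, which turned to -1.17 and -1.60 without the second control tumour array, and -0.32 with the mean of the 3. Of the 25 values, 20 were below 0, with a median of -0.83 against -0.12 over all genes. Those above 0 with the smallest p were Adamts16 (1.20 ± 0.57, adjusted p = 0.591), Adamts10 (1.74 ± 1.26, and 0.14 without the second control tumour array) and Mmp24 (0.02 ± 0.44). Adamts16 was at 6.24 and 6.56 in control mucosa, 5.99 and 4.80 in deficient mucosa, 5.87 and 6.34 in control tumours and 6.22 and 6.37 in deficient tumours. Mmp24 stayed between 5.75 and 6.59 on all arrays. That HAI-1 loss acted differently on any member in mucosa and in tumours was therefore not shown at this number of arrays.

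**Figure D4:**
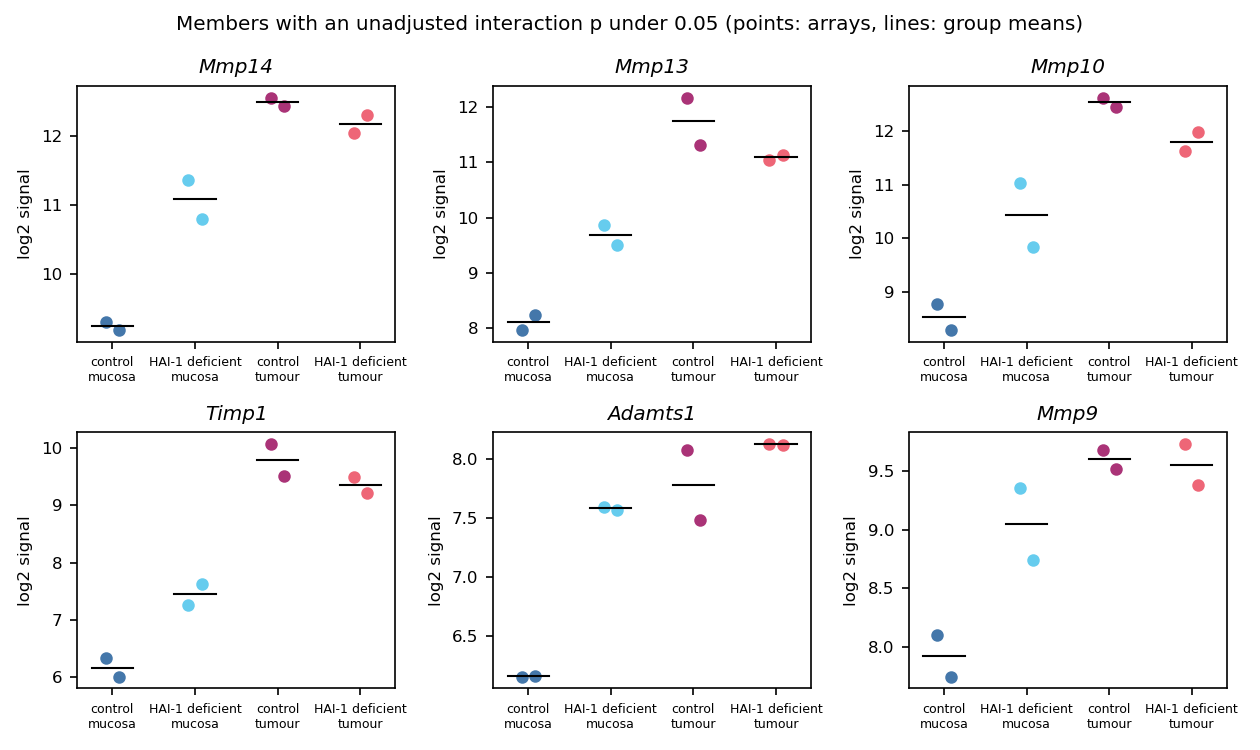
Log2 signal of Mmp14, Mmp13, Mmp10, Timp1, Adamts1 and Mmp9 in the 4 groups, each with its brightest probe set (points are arrays, lines group means). These are the 6 members with an unadjusted p under 0.05 for the difference between tissues, so some contrast follows from the choice. In mucosa the HAI-1 deficient arrays lie above the control arrays for all 6 genes. In tumours they lie below them for Mmp14, Mmp13, Mmp10 and Timp1. The other 2 Mmp14 probe sets gave tumour differences above 0, of 1.87 and 2.73 (0.30 and 0.33 without the second control tumour array). No difference between the tissues passed the adjusted test.

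Where a member had a second probe set above the filter, it was compared with the one used. There were 13 such probe sets for 10 genes. For HAI-1 loss in mucosa, all 13 had the sign of the one used, and 10 did for control tumours, 11 for deficient tumours, 8 for HAI-1 loss in tumours and 9 for the difference between the tissues. The 3 exceptions in control tumours were 1 probe set each of Mmp14, Mmp24 and Adamts5. The 3 further probe sets of Timp2 gave control tumour differences of 2.27, 2.13 and 2.82, and the second probe set of Adamts9 gave 3.76.

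Other genes of the same system were described from lists, whose counts are to be read against the shares of all genes called. These were 21.2% higher and 7.64% lower in control tumours, and 2.45% and 1.75% in deficient tumours. For HAI-1 loss in mucosa they were 0.899% and 0.152%. Of 15 tested substrates (collagens, proteoglycans and other matrix proteins), 13 rose in control tumours and none fell, with a median difference of 3.22. Among them were the fibrillar collagen genes Col1a2 (4.30 ± 0.25, adjusted p = 0.000454) and Col5a2 (4.26 ± 0.27, adjusted p = 0.000588) and the proteoglycan gene Dcn (4.36 ± 0.34, adjusted p = 0.000867). In deficient tumours, 5 of the 15 rose, Col1a2 by 2.50 ± 0.25 (adjusted p = 0.0222), and none was called for HAI-1 loss in either tissue. Of 16 regulators (activators, receptors and other inhibitors), 9 rose in control tumours, among them fibronectin (Fn1, 3.30 ± 0.27, adjusted p = 0.000867), the docking receptor Cd44 (3.35 ± 0.28, adjusted p = 0.000921) and the plasminogen activator Plat (3.79 ± 0.42, adjusted p = 0.00178). Plat was also the 1 regulator called in HAI-1 deficient mucosa, higher by 2.56 ± 0.42 (adjusted p = 0.0448).

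Of 18 tested relatives (ADAM, meprin, tolloid and other metalloproteases), 5 rose and 4 fell in control tumours. The share that rose was near the 21.2% over all genes, and the share that fell was above the 7.64% over all genes. Adam9 (1.49 ± 0.25, adjusted p = 0.00623) and Adam8 (1.85 ± 0.34, adjusted p = 0.0076) rose, and Mme, the brush border peptidase neprilysin, fell by 1.95 on the log2 scale (adjusted p = 0.00586). Pappa, a metalloprotease that cuts binding proteins of insulin-like growth factor, was the 1 relative called in HAI-1 deficient mucosa, at least 5.35-fold higher (adjusted p = 0.0419), since both control mucosa arrays were under the filter value. Of 17 AP-1, Ets and Wnt genes, 7 rose and 3 fell in control tumours, among them the Wnt targets Notum (3.90 ± 0.31, adjusted p = 0.000867) and Nkd1 (3.84 ± 0.65, adjusted p = 0.00601) and the Ets factor Etv4, which was under the filter value in control mucosa and rose at least 5.8-fold (adjusted p = 0.00183). The AP-1 subunits did not move together. Picked after their values were seen, Fosl1 rose by 2.24 ± 0.54 (adjusted p = 0.0199) and Jun fell by 1.28 (adjusted p = 0.0233) in control tumours. In deficient mucosa Notum was higher (2.33 ± 0.31, adjusted p = 0.0348), and Fosb (at least 7.4-fold, adjusted p = 0.0348) and Atf3 (-1.94 ± 0.33, adjusted p = 0.0476) were lower. Without the filter, 0 of 18194 genes were called for HAI-1 loss in mucosa. The calls of Plat, Pappa, Notum, Fosb and Atf3 there were thus lost under that setting.

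Markers of other cell types also differed between the groups, to be read against the same shares over all genes. In control tumours, 9 of 10 fibroblast, 6 of 6 smooth muscle, 3 of 6 endothelial, 2 of 4 neutrophil and 1 of 7 macrophage markers rose, as did 4 of 5 mast cell and 1 of 7 epithelial markers. Of the T and NK cell markers 3 of 6 fell, of the enterocyte markers 1 of 6 fell, and none of 4 Paneth cell markers was called. In deficient tumours 4 of 10 fibroblast, 2 of 6 smooth muscle and 3 of 5 mast cell markers rose. The summed linear signal of the fibroblast markers was 1781 to 1907 in control mucosa, 3668 to 5057 in deficient mucosa, 15263 to 15646 in control tumours and 9890 to 12728 in deficient tumours, the same order of groups as for Mmp10, Mmp13 and Timp1. The smooth muscle sums were 895 to 1031, 1651 to 2357, 6953 to 12931 and 5714 to 10569 in that order, the neutrophil sums 177 to 298, 302 to 1502, 2462 to 4535 and 1109 to 1328, and the macrophage sums 7439 to 7551, 6643 to 8091, 9705 to 12515 and 9173 to 9751. The mast cell sums were 2578 to 5546 in control mucosa, 1269 to 1300 in deficient mucosa, 43679 to 44860 in control tumours and 5738 to 33455 in deficient tumours, and so were lower in deficient than in control mucosa. The T and NK cell sums, 17743 to 18567, 6345 to 7994, 7450 to 9389 and 2314 to 4177 in that order, were highest in control mucosa. In deficient mucosa 1 of 6 endothelial markers, Tek, was called, and no fibroblast or smooth muscle marker was. The Tek call was also lost without the filter, where no gene was called. The log2 differences of the 10 fibroblast markers there ran from -1.37 to 2.14, with a median of 0.44 against 0.11 over all genes. Some fibroblast markers were thus lower in deficient than in control mucosa, unlike their sum. None of these markers was at 0 in any group, though the fibroblast genes Lum and Dpt and the mast cell genes Fcer1a and Tpsb2 were under the filter value in deficient mucosa, Cnn1 of smooth muscle in control mucosa, and the neutrophil genes Cxcr2 in all groups and Elane in deficient tumours. In bulk tissue a change in the number of cells of a type and a change in RNA per cell cannot be told apart, and the part of cell makeup in the members' differences was not tested.

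**Figure D5:**
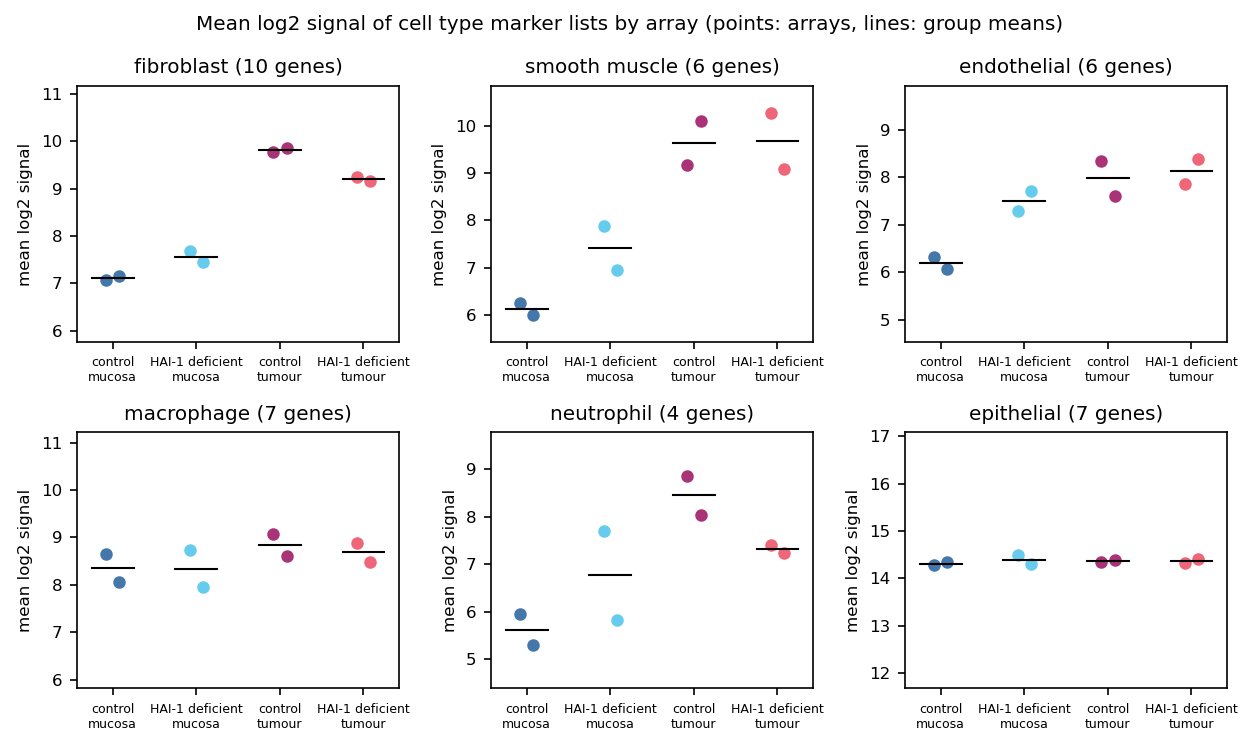
Mean log2 signal of marker lists for 6 cell types in the 4 groups (points are arrays, lines group means, all panels spanning the same log2 range). The fibroblast and smooth muscle lists are lowest in control mucosa, higher in HAI-1 deficient mucosa and highest in tumours, while the epithelial list stays level.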

How the data were processed

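Deposited values were log2 signals of 45101 probe sets on 8 arrays. The submitters' processing notes name MAS5 and RMA, and their versions and roles are not stated there. The deposited log2 values look like MAS5 signals: their linear mean, trimmed by 2% at either end, was 500.003 to 500.004 on each array, and the lowest value was 0. They were used as deposited. Detection calls were not used here, so signal over background is known only through the filter. Per the labels' protocols, biotin labelling took 1 cycle from 6 ug of RNA.

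The platform annotation named 1 gene for 34958 probe sets, more than 1 for 932 and no gene for 9211. All 37 members matched the RefSeq gene table by gene ID. Probe sets whose mean was under 5.20 were left out, and the brightest per gene was kept. A mean per group was fitted over 8 arrays with limma 3.58.1 in R 4.3.3 (4 residual and 3.52 prior degrees of freedom), with two-sided tests, Benjamini-Hochberg adjustment over 13119 genes and a threshold of 0.05. The script was checked on simulated data. Differences are on the log2 scale with the SE of the fit. An "at least" fold takes each array under the filter value at that value. Figures were drawn with python 3.11.15 and matplotlib 3.10.9.

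Members called in any comparison are given with all arrays, as are the 3 with the smallest p in each direction where none was called, and at most 3 called genes are named per list, except Fosl1 and Jun. The members and lists were chosen with earlier results of these data known. Alternatives were quantile normalization, no filter or a 60th percentile filter, raised dim values, a mean-variance trend, the mean of probe sets, the spike-in split as a term, a replicate block and leaving out each array. Leaving out the second control tumour array together with the mean of probe sets was added after seeing the data. Promoter windows were RefSeq's for GRCm38.p6.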

Additional observations from a re-analysis of the deposited data

How the results depend on the processing

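Of the 16 members called in control tumours, 10 stayed called under every alternative in which they were tested (Timp1, Timp2, Mmp2, Mmp3, Mmp7, Mmp10, Mmp11, Mmp12, Mmp13 and Adamts1). Counts called there were 12 (60th percentile filter) to 17, and 13 to 16 with 1 array left out. Mmp14 was lost with the mean of probe sets (0.88, adjusted p = 0.427), Mmp9 only with that mean and without the second control tumour array (adjusted p = 0.0624), and Timp3, Adamts9, Adamts12 and Mmp23 under 2 or more alternatives each (highest adjusted p = 0.140). Without the filter, Mmp19 was called higher (1.78) and the dim Mmp1a lower (-3.79), and without the first control tumour array Adamts10 was called lower (-3.24), resting on its single low value. Adamts4 was gained with raised dim values, the mean-variance trend, the mean of probe sets (with or without the second control tumour array) and without the first control mucosa array, and Mmp8 with the replicate block and without the first control mucosa array. For HAI-1 loss in mucosa, the members called were 0 with quantile normalization, no filter, the mean of probe sets, or that mean without the second control tumour array. They were 4 with the 60th percentile filter or the mean-variance trend and 3 with raised dim values, the added ones being Mmp13, Adamts1 and Mmp10, and 0 to 1 with 1 array left out. The Mmp14 difference itself stayed between 1.55 and 2.13. In deficient tumours, 0 were called without the filter, 3 with the mean of probe sets and no second control tumour array, and 0 to 3 with 1 array left out. Mmp13 and Mmp14 were gained with the 60th percentile filter, raised dim values and the mean-variance trend, Adamts12 with raised dim values and the spike-in term, and all 5 members called in the report kept their direction. For HAI-1 loss in tumours and for the difference between tissues, 0 were called under each alternative. The Mmp24 difference between tissues, 0.02, turned negative with the mean of probe sets (-0.30), the spike-in term (-0.052), the mean of probe sets without the second control tumour array (-0.25) and without the second array of any 1 group (the range with 1 array left out was -0.25 to 0.29). The causes of these changes were not tested. A filter or an omission also changes the number of genes or arrays. Same-numbered arrays did not deviate together (r from -0.138 to 0.220 over pairs of groups), so the numbers were not taken to pair the samples, although the second arrays of 3 groups share the high spike-in signal and shared mice are not excluded by the labels. With the replicate block, 17 members were called in control tumours, 0 for HAI-1 loss in mucosa (Mmp14 adjusted p = 0.0558), 3 in deficient tumours and 0 in the other comparisons.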
